A study of Mus musculus with 5 samples.

Results

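The genes described here are 45 receptors, signalling factors and induced genes of the interferon response in mouse lymph node lymphatic endothelial cells (LECs), the cells that line the lymph-filled sinuses of the node. They were picked by symbol from a table of 27843 genes, and all 45 were present and passed the filter on low counts, among 15874 genes tested. LECs had been sorted as CD31+ podoplanin+ cells that lacked CD45 and TER119, from C57BL/6 mice aged 8 weeks. The 3 control libraries came from littermate Rankl flox/flox mice, labelled wild type (WT). The 2 knockout libraries came from Ccl19 Cre Rankl flox/flox mice, labelled as conditional knockouts of RANKL in stroma. Both groups therefore carry the floxed allele of the gene for the cytokine RANKL, and they differ in the Cre, which the Ccl19 promoter drives in stromal cells rather than in LECs. The comparison asks which LEC transcripts differ when stromal RANKL is removed.

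Interferons are cytokines that put cells into an antiviral state. Type I interferons bind the receptor chains IFNAR1 and IFNAR2, and interferon gamma binds IFNGR1 and IFNGR2. JAK kinases on these chains activate STAT proteins. Type I interferons act largely through the interferon-stimulated response element (ISRE), which a complex that includes STAT2 and IRF9 binds, and interferon gamma through the gamma-activated site (GAS). The induced genes encode proteins that detect viral RNA, block viral replication or attack the vacuoles of intracellular microbes. Lymph node LECs carry receptors of both kinds and respond to interferons during infection.

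Libraries held between 52839375 and 70171307 counts. Levels are given as CPM, a gene's counts relative to the size of its library, with sizes scaled by edgeR's TMM factors. Tnfsf11, the targeted gene that encodes RANKL, stood at 0.38, 0.208 and 0.173 CPM in controls and at 0.164 and 0 CPM in knockouts, too low in sorted LECs to check the labels. The LEC markers Prox1, Flt4, Pdpn, Lyve1, Pecam1 and Cdh5 summed to 8310 to 8840 CPM in controls and 6090 to 6820 CPM in knockouts, and Prox1 was the 1 of these 6 that passed the test, lower in knockout. Ptprc, which marks leukocytes, stood at 2.15 to 2.73 CPM in controls and 2.39 to 2.89 CPM in knockouts. The 8 T and NK cell markers summed to 2.39 to 2.52 CPM in controls and 1.06 to 3.46 CPM in knockouts, with 0 called. The 7 macrophage markers summed to 14.7 to 20.2 CPM and 11.9 to 12.8 CPM, with 1 higher and 2 lower. The 7 listed markers of plasmacytoid dendritic cells, which include the member Bst2, summed to 1320 to 1460 CPM and 1040 to 1380 CPM with 1 lower, but Siglech, which defines those cells, stood at 0.275 to 1.78 CPM across libraries. Of 10 blood endothelial markers, 7 rose and 0 fell in knockout, with sums of 886 to 949 CPM in controls and 1340 to 1410 CPM in knockouts. Most of these sums came from Cldn5, which was not called (edgeR adjusted p = 0.06). Cldn5 stood at 865, 819 and 805 CPM in controls and at 1198 and 1033 CPM in knockouts. The 8 fibroblastic reticular cell markers, of which 0 were called, summed to 287 to 379 CPM in controls, with 362 CPM for knockout 2 and 792 CPM for knockout 1. Dcn alone stood at 692 CPM in knockout 1. Pdgfra, Pdgfrb, Col1a1 and Thy1 were also highest in knockout 1, while Ccl19, Cxcl13 and Lum lay within the control range there. The part of these other cells in the values below was not tested. Counts from sorted pools cannot tell fewer cells of a kind apart from less RNA per cell.

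Promoters of 5 members are shown because their genes carry the results below. Ifit1 and Rsad2 were highest in knockout 1, and their windows hold the letters of the ISRE core. Oasl1 had the highest ratio of knockout 1 to knockout 2 among the members, and its window holds none. Isg15 holds the core 3 times, in overlapping copies, and Trim25 fell in knockout. The windows run from 250 bases before to 50 bases after a transcription start and come from RefSeq on GRCm38.p6, the same build as mm10, each written 5′ to 3′ on the gene's strand. Ifit1 lies at chr19:34640639-34640938 on the plus strand, Rsad2 at chr12:26456403-26456702 on the minus strand and Isg15 at chr4:156200769-156201068 on the minus strand. Oasl1 lies at chr5:114922990-114923289 and Trim25 at chr11:88999153-88999452, both on the plus strand. Capitals mark the ISRE core, searched on both strands as GAAA, any 2 bases and GAAA again.
Ifit1: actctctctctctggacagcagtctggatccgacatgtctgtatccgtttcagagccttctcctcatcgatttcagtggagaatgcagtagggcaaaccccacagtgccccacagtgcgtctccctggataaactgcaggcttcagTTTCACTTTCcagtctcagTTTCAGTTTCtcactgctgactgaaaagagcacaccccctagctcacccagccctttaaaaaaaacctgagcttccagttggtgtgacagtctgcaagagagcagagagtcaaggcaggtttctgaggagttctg
Rsad2: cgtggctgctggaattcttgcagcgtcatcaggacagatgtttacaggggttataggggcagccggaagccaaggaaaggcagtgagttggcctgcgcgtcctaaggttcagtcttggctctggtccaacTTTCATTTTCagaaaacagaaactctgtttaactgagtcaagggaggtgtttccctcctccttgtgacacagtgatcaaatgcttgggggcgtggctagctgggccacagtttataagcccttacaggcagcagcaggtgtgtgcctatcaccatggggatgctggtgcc
Isg15: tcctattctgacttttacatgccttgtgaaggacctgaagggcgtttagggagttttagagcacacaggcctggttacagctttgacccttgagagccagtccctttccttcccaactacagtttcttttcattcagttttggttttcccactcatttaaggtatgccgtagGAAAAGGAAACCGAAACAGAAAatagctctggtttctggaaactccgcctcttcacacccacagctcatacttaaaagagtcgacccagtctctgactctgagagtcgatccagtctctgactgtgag
Oasl1: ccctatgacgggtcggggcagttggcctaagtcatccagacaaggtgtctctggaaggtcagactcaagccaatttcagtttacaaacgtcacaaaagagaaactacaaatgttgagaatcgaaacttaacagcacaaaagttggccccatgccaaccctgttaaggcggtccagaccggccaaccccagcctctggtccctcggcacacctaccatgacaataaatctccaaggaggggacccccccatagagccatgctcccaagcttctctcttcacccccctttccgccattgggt
Trim25: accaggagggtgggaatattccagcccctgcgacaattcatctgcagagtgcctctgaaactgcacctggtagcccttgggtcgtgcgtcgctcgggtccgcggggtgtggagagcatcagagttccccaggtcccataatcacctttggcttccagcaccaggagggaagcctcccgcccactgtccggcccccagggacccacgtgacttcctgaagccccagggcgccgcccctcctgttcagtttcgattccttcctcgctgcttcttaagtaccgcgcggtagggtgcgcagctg

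The promoter table held 38 windows for 34 of the 45 members. The ISRE core stood in 18 of the 38 (47.4%), against 1131 of all 32851 windows in the table (3.44%). The GAS core, searched as TTC, any 3 bases and GAA, which reads the same on both strands, stood in 12 of the 38 (31.6%), against 2726 of all windows (8.3%). A stretch that held both motifs counted for each. By gene, the ISRE core was present in 4 of 4 guanylate-binding protein genes with a window, 2 of 2 immunity-related GTPase genes and 4 of 7 IFIT and OAS genes. None of the 4 receptor genes held it, and neither did Irf1, Irf7 or Irf9. A match describes letters, not a bound site, and a window without a match says only that these letters are not in it. The 18 members with the core had a median log2 fold change of 0.16 and the 16 without it 0.03, and the single call among these 34 was Trim25, which lacks it.

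Few of the interferon genes passed the test in knockout LECs. Of the 45 members, 0 rose and 2 fell, Trim25 and Parp14, with a threshold of 0.05 on the Benjamini-Hochberg adjusted p over all tested genes (edgeR's quasi-likelihood test). Over all genes 7.24% were called, 3.25% as higher and 3.99% as lower, so the members' share was not above that of all genes. The members' median log2 fold change was -0.04 (knockout minus control), beside 0.00 for all tested genes, and 22 members had positive and 23 negative values. At an unadjusted p under 0.05, 5 members were higher and 8 lower, where 12.8% and 13.6% of all genes were. With DESeq2, Ifit1 was called higher and 6 members (Trim25, Parp14, Gbp6, Mx1, Oas2 and Oas3) lower, against 7.9% and 9.24% of all genes. Both knockout libraries lay above all controls for 6 members and below them for 10, where 22.8% and 22.5% of all genes did so. The data were precise enough to limit most changes: the 95% interval of the fold change lay within 2-fold for 37 of 45 members, against 60% of all tested genes. Of the 15874 tested genes, 10582 had a control mean at or above that of the lowest member. These shares are therefore not matched for level. Each of these 95% intervals rests on the spread among 5 libraries, which edgeR moderates with information from the other tested genes.

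**Figure D1:**
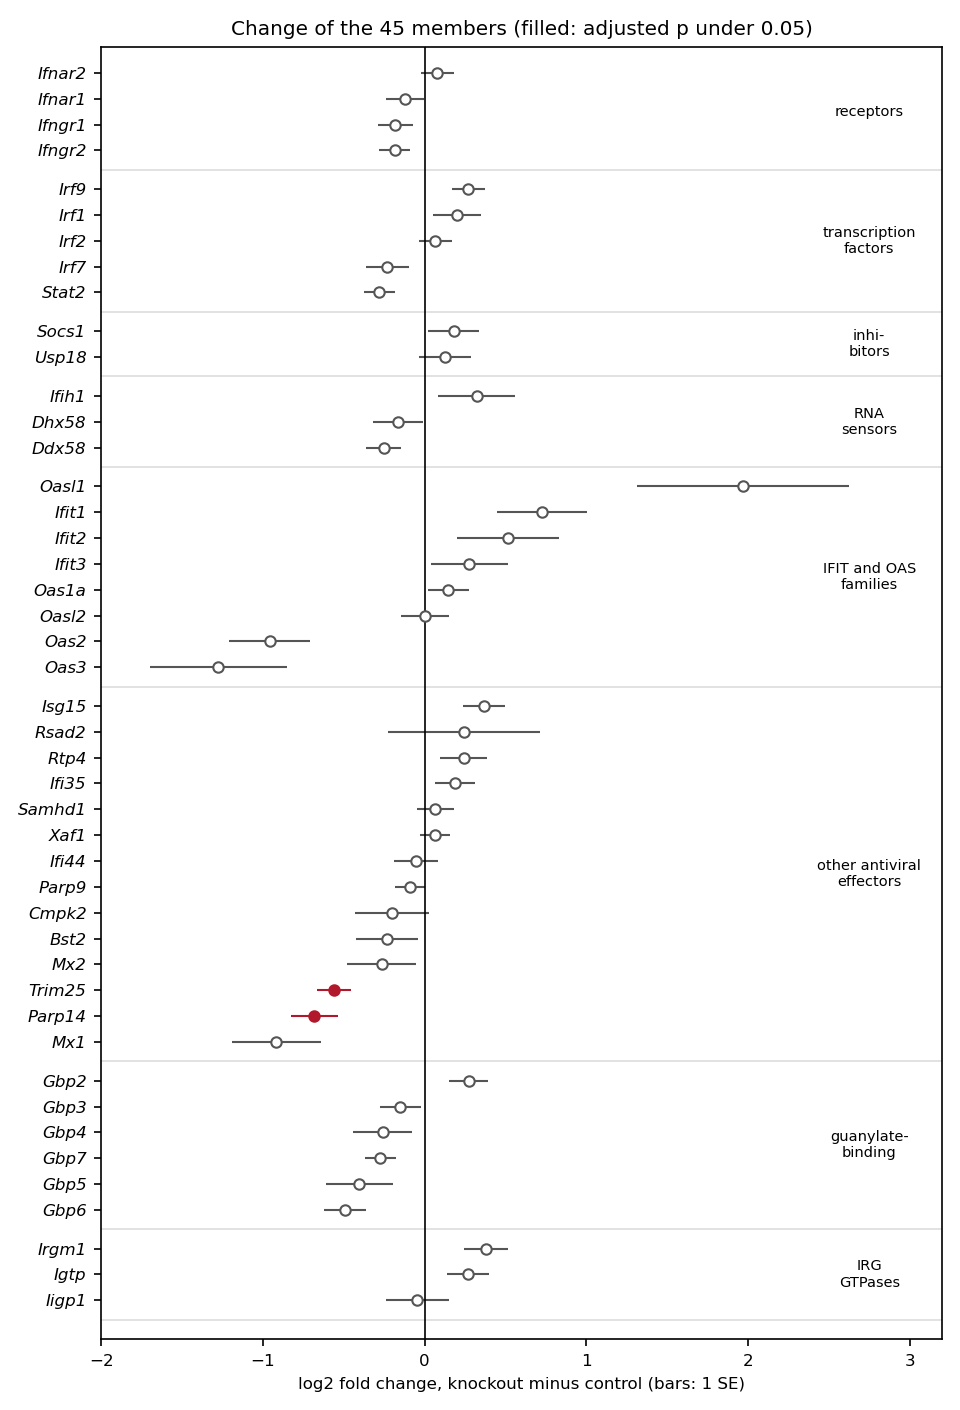
Log2 fold change, knockout minus control (horizontal axis), of the 45 members grouped by role, with bars of 1 SE. Trim25 and Parp14 are the filled points that passed an adjusted p of 0.05; Oasl1 has the widest bar, at 1.97 ± 0.66.

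The 4 receptor genes were well expressed and none of them passed the test. Ifnar1, which encodes a chain of the type I interferon receptor, stood at 148, 150.1 and 155 CPM in controls 1, 2 and 3, and at 156 and 122 CPM in knockouts 1 and 2. The log2 fold change of -0.12 ± 0.12 (SE) became -0.32 when knockout 1 was left out. Ifnar2, the partner chain, stood at 182, 210.3 and 212 CPM in controls and 205 and 219.6 CPM in knockouts (log2 fold change 0.08 ± 0.10). For both chains the groups overlapped.

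Ifngr1, the ligand-binding chain of the interferon gamma receptor, stood at 223, 263 and 245 CPM in controls and at 203 and 228 CPM in knockouts (log2 fold change -0.18 ± 0.11). Ifngr2, its signalling partner, stood at 136, 120.1 and 117 CPM in controls and at 108 and 111 CPM in knockouts (log2 fold change -0.18 ± 0.10). Ifngr2 was the 1 receptor gene whose knockout libraries lay below all controls, and it did not pass (edgeR adjusted p = 0.28). The 95% intervals of all 4 receptor genes lay within 2-fold, the widest running from -0.40 to 0.16 on the log2 scale for Ifnar1.

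The 5 transcription factors moved in different directions and none passed the test. Irf9, which gives the complex with STAT2 its DNA binding, stood at 149, 165 and 161 CPM in controls and 176 and 205 CPM in knockouts. Both knockouts lay above all controls, with a log2 fold change of 0.27 ± 0.10 (SE, edgeR adjusted p = 0.15), which was 0.15 without knockout 2. Stat2, which joins IRF9 in that complex, went the other way, from 81.2, 84.3 and 88.1 CPM in controls to 74.1 and 65.1 CPM in knockouts. Both knockouts lay below all controls, with a log2 fold change of -0.28 ± 0.10 (edgeR adjusted p = 0.12).

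Irf7, which drives the later wave of type I interferon genes, stood at 351, 339 and 373 CPM in controls. It stood at 260.4 CPM in knockout 1, below all controls, and at 343 CPM in knockout 2, within their range. The log2 fold change was -0.23 ± 0.13, and without knockout 2 it was -0.45 and passed. Irf1, a factor induced by interferon gamma, stood at 329, 417 and 330.0 CPM in controls and 370.0 and 455 CPM in knockouts (log2 fold change 0.20 ± 0.15, and 0.04 without knockout 2). Irf2, which can oppose IRF1, was the steadiest factor among controls, at 27.9, 28.0 and 28.4 CPM, with 31.5 and 27.3 CPM in knockouts (log2 fold change 0.06 ± 0.10). The groups overlapped for Irf1, Irf2 and Irf7.

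Both feedback inhibitors overlapped between groups. Socs1, which blocks JAK kinases, stood at 26.3, 24.3 and 23.1 CPM in controls and at 23.2 and 32.4 CPM in knockouts (log2 fold change 0.18 ± 0.16). Usp18, which removes ISG15 from proteins and restrains the type I receptor, stood at 92.3, 74.9 and 104 CPM in controls and at 87.5 and 110.1 CPM in knockouts (log2 fold change 0.13 ± 0.16). For each, knockout 1 lay within the control range and knockout 2 above it.

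The RNA sensors did not pass the test, and 1 of the 3 differed between the knockout libraries. Ddx58, which encodes the cytosolic sensor RIG-I, stood at 189, 163 and 179 CPM in controls and at 137 and 159.9 CPM in knockouts. Both knockouts lay below all controls, with a log2 fold change of -0.25 ± 0.11 (edgeR adjusted p = 0.20), which was -0.15 without knockout 1. Dhx58, which encodes their relative LGP2, stood at 51.5, 53.9 and 67.3 CPM in controls and at 57.5 and 45.3 CPM in knockouts (log2 fold change -0.16 ± 0.15). Ifih1, which encodes the sensor MDA5, stood at 75.2, 64.4 and 70.1 CPM in controls, with 113.5 CPM for knockout 1 and 61.2 CPM for knockout 2. Knockout 1 was thus above all other libraries and knockout 2 below them, and the log2 fold change of 0.32 ± 0.24 became -0.20 without knockout 1 and 0.69 without knockout 2, where it passed.

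**Figure D2:**
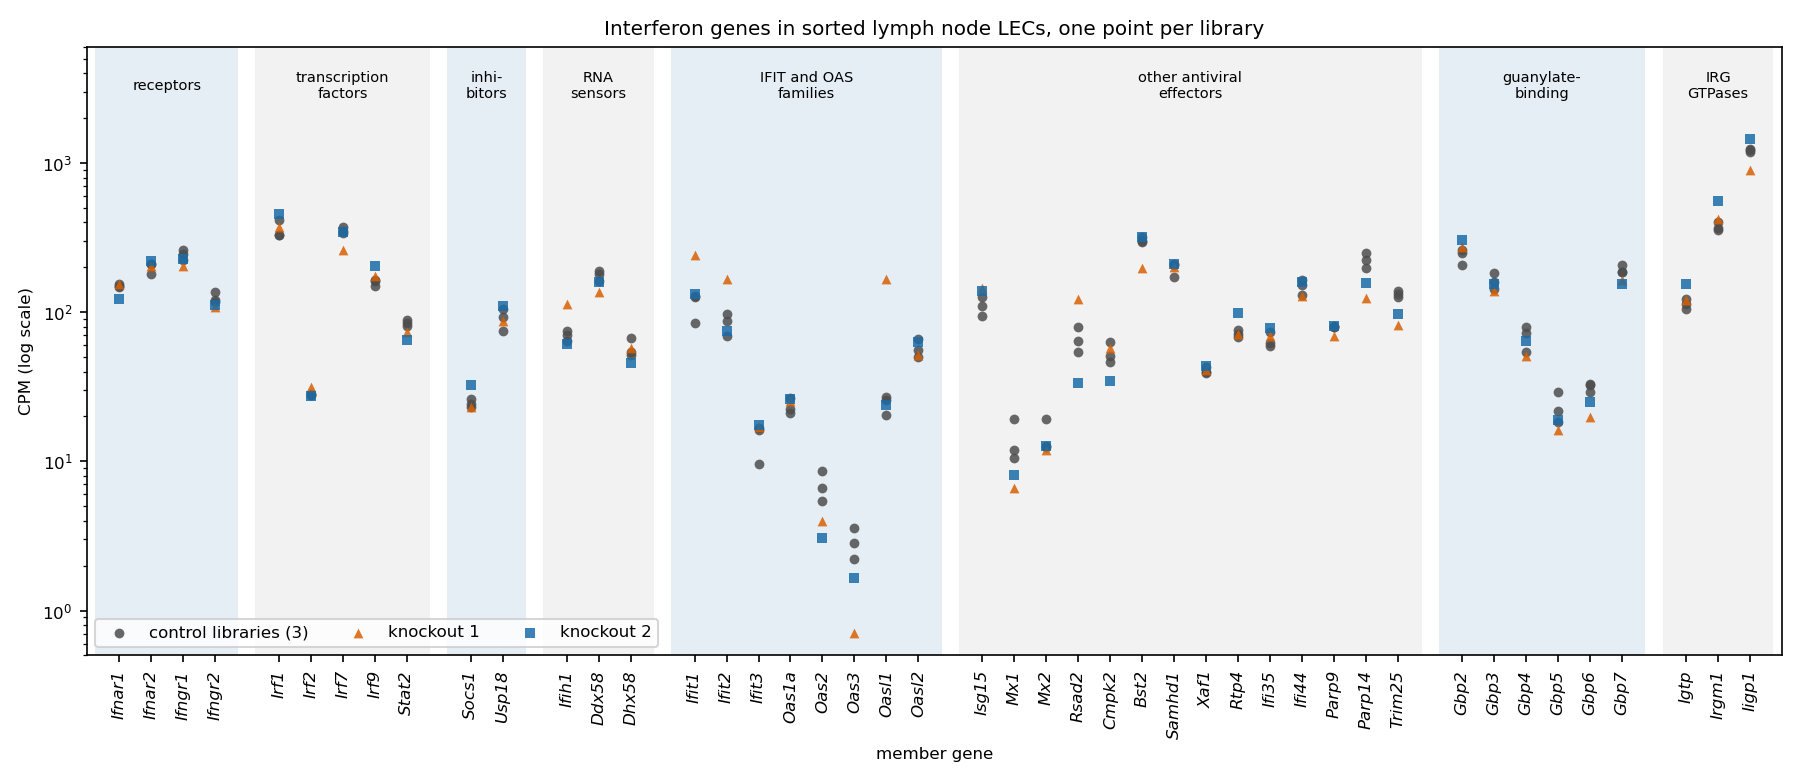
CPM (vertical axis, log scale) of the 45 members by role, 1 point per library (circles, 3 controls; triangle, knockout 1; square, knockout 2). Most members lie in a narrow band across all libraries; Oasl1, at 167 CPM in knockout 1 and 20.5 to 26.8 CPM in the other libraries, stands out.

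Trim25 and Parp14 were the members that fell. Trim25 (chromosome 11, 88999376 to 89020293) encodes the ubiquitin ligase that helps activate RIG-I. It stood at 139.5, 126 and 132 CPM in controls and at 82.5 and 97.1 CPM in knockouts. The means were 132 ± 6.88 (SD, n = 3) and 89.8 ± 10.3 CPM (SD, n = 2), both knockouts lay below the lowest control, and the log2 fold change was -0.56 ± 0.10 (SE, edgeR adjusted p = 0.029). Parp14 (chromosome 16, 35832874 to 35871544), a large ADP-ribosyltransferase, stood at 251, 199 and 224 CPM in controls and at 124 and 156 CPM in knockouts. The means were 225 ± 26.2 (SD, n = 3) and 140.1 ± 22.9 CPM (SD, n = 2), the groups did not overlap here either, and the log2 fold change was -0.68 ± 0.14 (SE, edgeR adjusted p = 0.041). Its relative and neighbour Parp9 stood at 80.7, 79.1 and 80.1 CPM in controls and 69.8 and 80.7 CPM in knockouts (log2 fold change -0.09 ± 0.09).

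Whether both falls passed the test depended on settings. So did the calls over all genes, which made up 7.24% of tested genes with all libraries. Without control 1, 2 and 3 in turn, 1.74%, 1.12% and 0.0705% of tested genes were called. Trim25 lost its call without control 1, 2 or 3 (log2 fold change -0.52, -0.59 and -0.57), and Parp14 lost its call without control 1, 2 or 3 or without knockout 1 (-0.59, -0.76, -0.69 and -0.53). Exon length went with the sign of the change: Spearman's rho between the log2 fold change and exon length was -0.21 across all tested genes and -0.43 across the 45 members, which share libraries and depth; across the members it was -0.21 in the offset fit described next. Trim25 has 5754 and Parp14 9306 exon bases. In the fit with offsets from exon length and GC content, Trim25 stood at -0.49 ± 0.11 (edgeR adjusted p = 0.052) and Parp14 at -0.52 ± 0.15 (adjusted p = 0.09), 0 members were called, and 2.47% of all genes were called lower.

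The IFIT and OAS families held the widest range of values. IFIT proteins bind foreign RNA, and OAS proteins make the messenger that activates an RNA-degrading enzyme. Oas2 stood at 5.46, 6.59 and 8.60 CPM in controls and at 4.00 and 3.08 CPM in knockouts, so both knockouts lay below all controls (log2 fold change -0.96 ± 0.25, edgeR adjusted p = 0.067). Oas3, the least abundant member, stood at 2.83, 3.56 and 2.21 CPM in controls and at 0.712 and 1.65 CPM in knockouts, again without overlap (log2 fold change -1.28 ± 0.42, edgeR adjusted p = 0.11). Its value was -0.80 without knockout 1 and -2.01 without knockout 2, where it passed. Oas1a overlapped between groups, at 21.0 to 26.7 CPM in controls and 25.6 to 26.2 CPM in knockouts. Oasl2 overlapped too, with a log2 fold change of 0.00 ± 0.15. Reads of the similar genes of the Oas cluster are uncertain, because how reads with more than 1 match in the genome were handled is not given in the sources used here.

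Ifit1 stood at 127, 84.2 and 129 CPM in controls and at 243 and 133 CPM in knockouts. Both knockouts lay above all controls, knockout 2 only just, and the log2 fold change was 0.73 ± 0.28 (SE, edgeR adjusted p = 0.16). It was 0.22 without knockout 1 and 1.09 without knockout 2. Ifit2 stood at 86.9, 69.2 and 97.3 CPM in controls, with 167 CPM for knockout 1 and 74.3 CPM for knockout 2, the latter inside the control range (log2 fold change 0.51 ± 0.32, -0.19 without knockout 1 and 0.98 without knockout 2, where it passed). Ifit3, in the same cluster on chromosome 19, stood at 16.2, 9.58 and 16.8 CPM in controls and at 17.0 and 17.5 CPM in knockouts. By these counts it did not share the high value of knockout 1. Ifit3b, of the wider list, stood at 6.06, 4.33 and 6.76 CPM in controls and at 7.31 and 6.62 CPM in knockouts. How reads that match both Ifit3 and Ifit3b were handled is not given, so the counts of both are uncertain.

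Oasl1, which encodes an OAS-like protein known to restrain translation of Irf7 mRNA, had the largest log2 fold change among the members, 1.97 ± 0.66 (SE), and did not pass (edgeR adjusted p = 0.11). It stood at 25.8, 20.5 and 26.8 CPM in controls, with 167 CPM for knockout 1 and 23.9 CPM for knockout 2. The whole difference came from knockout 1, which was 6.98 times knockout 2, and without it the log2 fold change was -0.03. Of 10581 genes with reads in both knockouts and a control mean of at least 2.87 CPM, the level of the lowest member, 5 had a ratio of knockout 1 to knockout 2 this large or larger, Oasl1 included.

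Rsad2, which encodes the antiviral enzyme viperin, split the knockouts in opposite directions. It stood at 64.5, 54.1 and 79.1 CPM in controls, with 123 CPM for knockout 1 and 33.4 CPM for knockout 2. Its log2 fold change was 0.25 ± 0.47 with all libraries, -0.98 without knockout 1 and 0.89 without knockout 2, and it passed in both of the latter. Cmpk2, a nucleotide kinase gene beside Rsad2 on chromosome 12, stood at 50.6, 46.5 and 62.7 CPM in controls, with 58.0 CPM for knockout 1 and 34.6 CPM for knockout 2. For Cmpk2 it was thus knockout 2 that left the control range.

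The knockout libraries differed from each other at several members. Of the 45, 6 (13.3%) were at least 1.5-fold higher in knockout 1 than in knockout 2 (Oasl1, Rsad2, Ifit2, Ifih1, Ifit1 and Cmpk2), against 6.04% of genes at or above the lowest member's control mean. Another 3 (6.67%; Oas3, Bst2 and Iigp1) were at least 1.5-fold lower in knockout 1, against 5.24% of those genes. These ratios compare single libraries and have no test. Knockout 1 also held the highest sums of fibroblastic reticular (792 CPM, of which Dcn gave 692 CPM), blood endothelial (1410 CPM) and red cell markers (2.98 CPM). It held the lowest sums of LEC (6090 CPM), plasmacytoid dendritic (1040 CPM), dendritic (348 CPM), macrophage (11.9 CPM) and T and NK cell markers (1.06 CPM). Its values for Ptprc and the listed B cell markers lay between those of other libraries. The part of these cells in the ratios was not tested. The counts of calls changed with the library left out. Without knockout 1, Irgm1 and Rtp4 were called higher and Rsad2 and Trim25 lower, where 3.67% and 6.76% of all genes were called higher and lower. Without knockout 2, Ifih1, Ifit2, Oasl1 and Rsad2 were called higher and Bst2, Gbp6, Irf7, Oas3, Parp14 and Trim25 lower, against 4.76% and 5.67% of all genes. In each of these fits 1 knockout library is assumed to vary as the controls do.

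**Figure D3:**
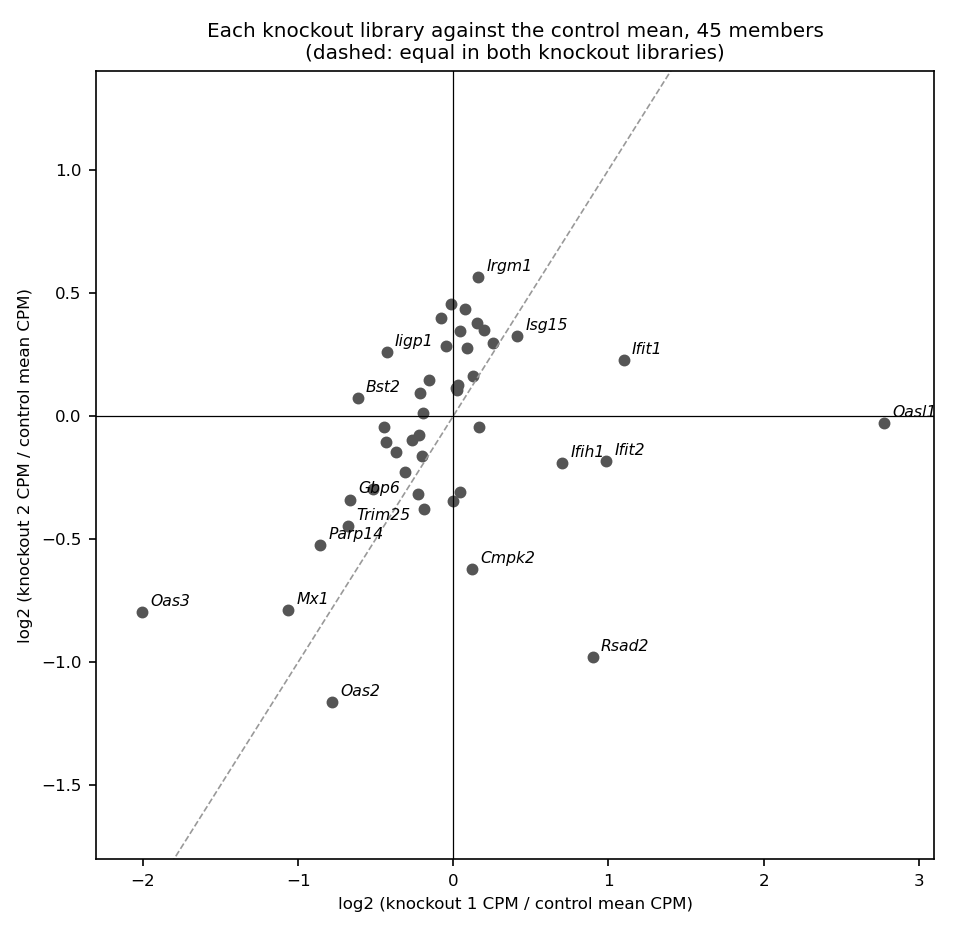
Log2 ratio to the control mean CPM of knockout 1 (horizontal axis) and knockout 2 (vertical axis), 1 point per member, with a dashed line where the libraries are equal. Oasl1, Ifit1, Ifit2, Ifih1 and Rsad2 lie to the right of the line, and Trim25 and Parp14 lie in the lower left, low in both libraries.

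The interferon ligand genes with counts were almost absent, with 1 exception, in knockout 1. Of 21 ligand genes listed, 6 had a row in the table and 0 passed the filter. The others have no count here, which differs from a count of 0. Ifnb1, which encodes interferon beta, had 2, 0 and 0 reads in controls, 92 reads in knockout 1 (1.68 CPM, exact 95% Poisson interval 74.2 to 113 reads) and 0 in knockout 2. Ifna4 had 13 reads in knockout 1 and 0 in each other library. The interval covers counting error only, since PCR copies of 1 molecule cannot be told from separate molecules here. Ifnb1 had at least 50 reads in 1 library and at most 2 in every other, a pattern that was not planned in advance. The pattern was met by 6 genes for knockout 1, Ifnb1 included. It was met by 2 for control 1, by 1 for control 2 and by 0 for control 3 and knockout 2. Ifng, which encodes interferon gamma, had 6 reads in control 3 and 0 in the other libraries. For a count of 0 the same exact interval reaches 3.69 reads. Whether the reads of Ifnb1 are tied to the high levels of Oasl1, Rsad2, Ifit1, Ifit2 and Ifih1 in knockout 1 was not tested.

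**Figure D4:**
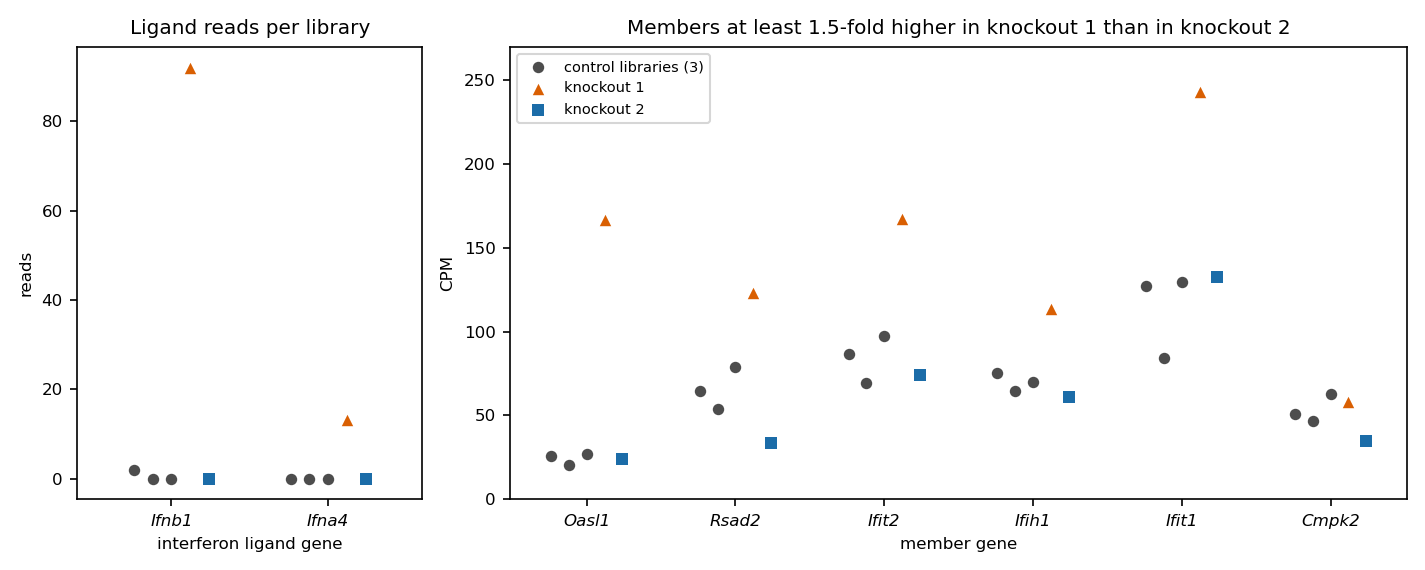
Left, reads of the ligand genes Ifnb1 and Ifna4 in each library; right, CPM of the 6 members at least 1.5-fold higher in knockout 1 than in knockout 2 (circles, 3 controls; triangle, knockout 1; square, knockout 2). Ifnb1 has 92 reads in knockout 1 and at most 2 elsewhere.

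None of the remaining antiviral effectors passed the test. Bst2, which encodes tetherin, a protein that holds budding viruses on the cell, stood at 299, 294 and 319 CPM in controls, with 198 CPM for knockout 1 and 319.7 CPM for knockout 2 (log2 fold change -0.23 ± 0.19, 0.07 without knockout 1 and -0.62 without knockout 2, where it passed). Isg15, a ubiquitin-like modifier, stood at 111, 93.8 and 126 CPM in controls and at 146 and 138 CPM in knockouts. Both knockouts lay above all controls, with a log2 fold change of 0.37 ± 0.13 (SE, edgeR adjusted p = 0.13). Samhd1, which depletes nucleotides, stood at 172, 207 and 211 CPM in controls and at 200 and 212 CPM in knockouts (log2 fold change 0.07 ± 0.11).

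Mx1, a gene of the dynamin-like GTPase family, stood at 12.0, 10.6 and 19.3 CPM in controls and at 6.67 and 8.08 CPM in knockouts. The groups did not overlap, and the log2 fold change was -0.92 ± 0.28 (SE, edgeR adjusted p = 0.091). Its paralogue Mx2 stood at 12.6 to 19.4 CPM in controls and 12.0 to 12.7 CPM in knockouts, with overlap. The other effectors, Xaf1, Rtp4, Ifi35 and Ifi44, had log2 fold changes between -0.05 (Ifi44) and 0.24 (Rtp4), and their groups overlapped. Of the bases in exons, 16.8% of Ifi35 and 13.9% of Rtp4 are shared with another annotated gene, and reads in those bases belong to neither gene with certainty.

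Guanylate-binding proteins, GTPases that attack the vacuoles and membranes of intracellular microbes, had mostly negative values and no call. Of 6 genes 0 passed, with 5 negative log2 fold changes and a median log2 fold change of -0.27. In the fit with offsets from exon length and GC content the median was -0.19. Gbp2, which has the fewest exon bases of the 6 (2516), stood at 0.21 in that fit. Gbp6 stood at 29.0, 32.3 and 33.1 CPM in controls and at 19.9 and 24.9 CPM in knockouts, without overlap (log2 fold change -0.49 ± 0.13, edgeR adjusted p = 0.068). Gbp7 stood at 185, 185 and 209 CPM in controls and at 164 and 155 CPM in knockouts, also without overlap (-0.27 ± 0.10, edgeR adjusted p = 0.13). Gbp2 was the exception, at 209, 248 and 262 CPM in controls and 274 and 305 CPM in knockouts, where both knockouts lay above all controls (0.27 ± 0.12, edgeR adjusted p = 0.21). Gbp3, Gbp4 and Gbp5 overlapped between groups, with log2 fold changes of -0.15, -0.26 and -0.40. These genes resemble each other, and Gbp6 shares 29% and Gbp7 11.3% of its exon bases with an annotated neighbour, so their reads are uncertain.

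The immunity-related GTPases, which load onto pathogen vacuoles, did not pass the test either. Irgm1, a regulator of the family, stood at 369, 400.3 and 358 CPM in controls and at 419.6 and 556 CPM in knockouts. Both knockouts lay above all controls, with a log2 fold change of 0.38 ± 0.14 (SE, edgeR adjusted p = 0.14), which was 0.56 without knockout 1, where it passed, and 0.16 without knockout 2. Igtp stood at 105, 114 and 123 CPM in controls and at 120.2 and 154 CPM in knockouts (log2 fold change 0.27 ± 0.13, and 0.07 without knockout 2), with overlap. Iigp1, an effector of the family, was the member with the most reads and stood at 1216, 1184 and 1234 CPM in controls. The knockouts lay on either side of that narrow range, at 899 and 1449 CPM (log2 fold change -0.04 ± 0.19).

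Levels of different genes were compared per kilobase of exons, and their order is approximate. The length counts every annotated exon of a gene, whichever of its transcripts the cells make. For Irf7 it is 3776 bases, which are all the bases of the gene from 141262706 to 141266481. Bst2 was highest in controls, at 337 ± 14.6 CPM per kilobase (SD, n = 3), followed by Iigp1 at 208 ± 4.33 and Isg15 at 146 ± 21.4 CPM per kilobase. The ranges over control libraries of these 3 did not overlap with each other or with the next gene. Gbp2 (95.2 ± 10.9), Irf7 (93.9 ± 4.53), Irf1 (90.2 ± 12.7) and Ifngr1 (85.7 ± 6.99 CPM per kilobase) came next, and neighbours among these 4 overlapped. By the mean of both knockouts the first 4 stood in the same order, but within knockout 1 Isg15 stood above Iigp1. At the other end, Oas2 (1.55 ± 0.357) and Oas3 (0.406 ± 0.0952 CPM per kilobase) were lowest. The level of Bst2 was above that of 99.3% of tested genes in controls, that of Irf7 above 96.9% and that of Oas3 above 25.2%. Oasl1 ranked 32nd of the 45 in controls and 15th by the knockout mean, a mean that rests on knockout 1.

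**Figure D5:**
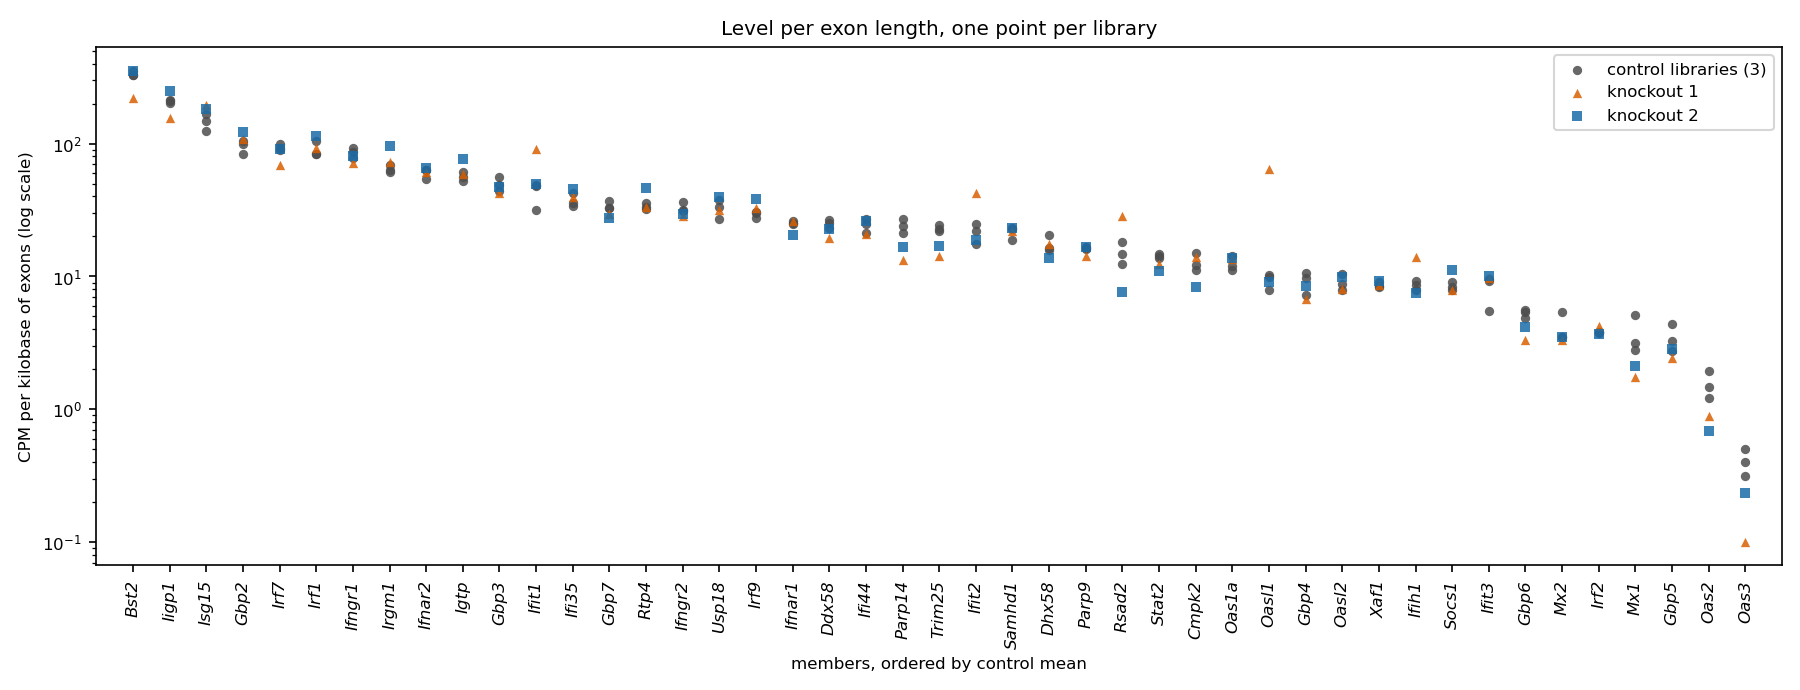
CPM per kilobase of exons (vertical axis, log scale) of the 45 members, ordered by the control mean, 1 point per library (circles, 3 controls; triangle, knockout 1; square, knockout 2). Bst2, Iigp1 and Isg15 lead, and Oas3 is lowest, at 0.406 CPM per kilobase in controls.

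Of 112 other genes of the pathway, 95 were in the table and 87 were tested. Among these, 2 rose and 4 fell, beside the 3.25% and 3.99% of all genes, with a median log2 fold change of -0.13. Slfn2, a Schlafen gene, rose from 95.5, 79.8 and 77.9 CPM in controls to 164 and 136 CPM in knockouts (log2 fold change 0.83 ± 0.13, SE, edgeR adjusted p = 0.02). Its family member Slfn5 fell from 156, 139.7 and 151 CPM to 101 and 109.6 CPM (-0.50 ± 0.09, edgeR adjusted p = 0.029). Nlrc5, which switches on MHC class I genes, fell from 52.3, 59.1 and 59.9 CPM to 34.0 and 37.7 CPM (-0.67 ± 0.10, edgeR adjusted p = 0.02).

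Tlr4, the receptor for bacterial lipopolysaccharide, fell from 74.0, 58.0 and 64.9 CPM in controls to 38.5 and 33.7 CPM in knockouts (log2 fold change -0.86 ± 0.13, SE, edgeR adjusted p = 0.02). Irf5 fell from 15.6, 10.1 and 14.3 CPM to 7.43 and 5.21 CPM (-1.07 ± 0.24, edgeR adjusted p = 0.048). Tgtp1, an immunity-related GTPase with a near-identical neighbour, rose from 20.2, 22.1 and 20.4 CPM to 28.6 and 28.0 CPM (0.44 ± 0.10, edgeR adjusted p = 0.047), and its reads are uncertain. Over all genes, 7.24% were called with all libraries, and 1.74%, 1.12% and 0.0705% without control 1, 2 and 3. Without control 3, log2 fold changes of the called pathway genes were 0.77 (Slfn2), -0.49 (Slfn5), -0.64 (Nlrc5), -0.87 (Tlr4), -1.02 (Irf5) and 0.42 (Tgtp1). All 6 lost their call there. Slfn2 (0.79), Nlrc5 (-0.65), Slfn5 (-0.55), Irf5 (-1.24) and Tgtp1 (0.48) lost it without control 2 as well, and Slfn5 (-0.47), Irf5 (-0.95) and Tgtp1 (0.41) without control 1. Irf5 also lost it without knockout 2 (-0.84), and Tgtp1 without knockout 1 (0.42) or knockout 2 (0.45). In the offset fit, Nlrc5 (-0.52) and Tgtp1 (0.42) lost theirs. With library totals alone Irf5 (-1.07) and Tgtp1 (0.44) did, and with limma-voom Irf5 (-1.08).

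The kinases that link receptors to these genes did not pass. Jak1, which serves both receptor types, was abundant, at 4578, 4340 and 4674 CPM in controls and 2954 and 3469 CPM in knockouts, and both knockouts lay below all controls (log2 fold change -0.50 ± 0.12, edgeR adjusted p = 0.059). Jak2 (-0.39 ± 0.19) and Tyk2 (-0.25 ± 0.12) had negative values too, and the groups overlapped for Jak2 and not for Tyk2. Irf3, which the RNA sensors activate, stood at 21.2, 24.4 and 25.5 CPM in controls and at 29.4 and 26.2 CPM in knockouts (0.23 ± 0.12, edgeR adjusted p = 0.28).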

How the data were processed

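The authors deposited raw counts of reads per gene (Ensembl identifiers) for 5 libraries. HTSeq 0.6.1, Bowtie2 2.1.0, TopHat2 2.0.14, bcl2fastq 2.17.1.14 and the build mm10 are listed, without roles or settings, in the submitters' processing notes. Per the labels' protocols, cDNA was made with SMART-Seq v4 and Nextera XT, kits that do not mark strand. Of 27843 genes, 27648 were matched by identifier to GENCODE M21. edgeR 4.0.16 (R 4.3.3; filterByExpr with minimum count 10, TMM, robust quasi-likelihood F test, legacy form) compared 2 knockout with 3 control libraries, with Benjamini-Hochberg adjustment over 15874 genes and 0.05 as the threshold. The SE is the log2 fold change over the square root of F. The code was tested on simulated data. Alternatives were other size factors and filters, DESeq2 1.42.0, limma-voom (limma 3.58.1), the newer quasi-likelihood form, an adjusted p of 0.1, library numbers as a block, offsets from exon length and GC content (loess, span 0.5), and fits that left out each library in turn. The labels do not say how many animals made a library, so p-values measure the spread between libraries.

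The members and lists were chosen with earlier results of these data known. Values per library were given by rule for receptors, factors, inhibitors, sensors and called members. In each other role the rule took the 3 members with the smallest p and the 2 with the highest mean CPM. Of the wider list it took called genes, Jak1, Jak2, Tyk2, Irf3, Ifnb1 and Ifng; 1 further gene of the rule is not reported here. Ifit3, Ifit3b, Oas1a, Rsad2, Cmpk2, Isg15, Parp9, Mx2 and Ifna4 were added after their values were seen.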

Additional observations from a re-analysis of the deposited data

How the results depend on the processing

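Over all genes, 516 higher and 634 lower calls became 1254 and 1466 with DESeq2, 1188 and 1358 at a threshold of 0.1, and 474 and 392 with the exon length and GC offset, which moved the share of higher calls from 44.9% to 54.7%. With a library left out they ranged from 2 to 784 and from 9 to 1125, both lowest without control 3. The 2 lower members became 4 without a filter on low counts, 6 with DESeq2, 5 at a threshold of 0.1, 0 with the offset, and 0 to 6 when a library was dropped. The 0 higher members became 1 with DESeq2 and 0 to 4 on dropping a library. Of other pathway genes, the 2 higher became 4 with DESeq2, 1 with library totals alone, 1 with the offset and 0 to 3 when a library was dropped, and the 4 lower became 13 with DESeq2, 10 at a threshold of 0.1 and 0 to 12 on dropping one.

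The labels give controls and knockouts the numbers 1 and 2 without saying that they pair animals, and deviations of same-numbered libraries correlated at 0.05 and -0.04. A replicate block gave 0 higher and 0 lower calls over all genes, and so for members and other pathway genes. The main fit has 3 residual degrees of freedom, from which the spread is estimated, and the block leaves fewer. Control 3 has no knockout of its number to be compared with. A lack of calls in this fit therefore cannot show that differences are absent. Block and offset together gave 0 higher and 2 lower genes, 0 of them members or other pathway genes.

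The members' median log2 fold change, -0.04, lay between -0.06 and 0.04 over all 16 alternatives. Signs turned for Oasl2 (-0.003 without a filter), Rsad2 (-0.025 with limma-voom), Ifi44 (0.023 with the block, 0.026 with the offset, 0.109 with block and offset) and Iigp1 (0.025 with the offset, 0.01 with block and offset). With a library left out, members whose sign turned ranged from -0.159 to 0.140 (Oasl2), -0.021 to 0.118 (Samhd1), -0.217 to 0.090 (Ifi44), -0.048 to 0.161 (Irf2), -0.197 to 0.695 (Ifih1), -0.189 to 0.979 (Ifit2), -0.034 to 2.770 (Oasl1), -0.984 to 0.894 (Rsad2), -0.622 to 0.067 (Bst2), -0.201 to 0.009 (Parp9), -0.434 to 0.253 (Iigp1), -0.316 to 0.039 (Ifnar1), -0.087 to 0.394 (Socs1), -0.053 to 0.278 (Usp18), -0.626 to 0.117 (Cmpk2) and -0.018 to 0.451 (Rtp4). Where a knockout library was dropped, the remaining one was assumed to vary like the controls. Fits with a library dropped rest on fewer libraries, and otherwise the cause was not tested.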
